A study of Rattus norvegicus with 18 samples.

Results

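The genes described here encode the MHC class II antigen presentation machinery of the rat: RT1-Da, RT1-Db1, RT1-Ba, RT1-Bb, RT1-DMa, RT1-DMb, Cd74 and Ciita. They were chosen by name and role, and each symbol matched 1 row, giving 8 genes of the 30957 in the deposited table. All 8 had enough reads to be tested, as did 14511 genes in all. The libraries came from the renal parenchyma of rats whose left ureter had been tied off under ketamine anaesthesia, a model of obstructive nephropathy. The ligation lasted 1 day (5 libraries), 3 days (5 libraries), 7 days (5 libraries) or 14 days (3 libraries), and every library is from an operated animal. Sham-operated animals were part of the design and are not analysed here, so no value below is a change from an unobstructed kidney. The labels used here give no strain, sex or age, and they do not say whether each library came from its own animal. The p-values therefore measure the spread between libraries, which may be partly technical.

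MHC class II molecules are pairs of an alpha and a beta chain that display peptides from endocytosed proteins to CD4+ T cells. They are made mainly by dendritic cells, macrophages and B cells, and other cells, kidney epithelium among them, can be induced to make them by interferon gamma. The chains assemble in the endoplasmic reticulum on the invariant chain, Cd74, which blocks the groove and guides the complex to endosomes. There proteases trim the invariant chain, and the DM heterodimer exchanges the remaining fragment for a peptide. Ciita is the transactivator that binds no DNA itself and switches the whole set on by docking onto a protein complex at a shared promoter module of X and Y boxes. In the rat, RT1-D (chains RT1-Da and RT1-Db1) corresponds to human HLA-DR, and RT1-B (chains RT1-Ba and RT1-Bb) to HLA-DQ.

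The promoters are shown first because Ciita is known to act at this module, and the search below asks which of the genes hold letters like it. The promoter sequences were taken from RefSeq (assembly GRCr8), from 250 bases before to 50 bases after each gene's start, and 6 of the 8 genes had an entry. RT1-DMb and Ciita had none. The X-like letters ACNGATG and the Y-like letters GATTGG (the reverse complement of CCAAT plus 1 base) were chosen after these sequences had been read, and both strands were searched. In the stretches below, read 5′ to 3′ on the gene's strand, capitals mark those letters.
RT1-Da, chr20:4515325-4515376, plus strand: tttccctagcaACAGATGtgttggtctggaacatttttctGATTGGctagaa
RT1-Db1, chr20:4560232-4560282, minus strand: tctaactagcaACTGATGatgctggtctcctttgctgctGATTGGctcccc
RT1-Bb, chr20:4604169-4604219, minus strand: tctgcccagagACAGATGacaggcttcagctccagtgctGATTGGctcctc
RT1-DMa, chr20:4712389-4712440, minus strand: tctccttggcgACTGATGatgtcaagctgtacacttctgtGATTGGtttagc
RT1-Ba, chr20:4576968-4577024, plus strand: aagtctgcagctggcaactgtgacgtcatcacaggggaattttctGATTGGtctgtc

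Between the 2 marked stretches lie 22 bases in RT1-Da and RT1-DMa and 21 bases in RT1-Db1 and RT1-Bb, and the Y-like letters begin 50, 81, 62 and 65 bases before the start of RT1-Da, RT1-Db1, RT1-Bb and RT1-DMa. RT1-Ba holds the Y-like letters 44 bases before its start and no match to the X-like letters. The window of Cd74 holds neither. Across all 33469 promoter windows of the same length, 10.2% held the X-like letters and 14.8% the Y-like letters. The X-like letters followed by the Y-like letters on 1 strand within 40 bases occurred in 43 windows, 0.128% of them, of which 4 belong to genes of the set and 2 more to the class II genes RT1-DOb and RT1-Db2. These matches describe letters, not bound sites, and since the letters were read from these promoters the shares over all windows are no independent support for them. The deposited table, whose genome build is not given in the sources used here, places the 6 chain genes on chromosome 20. The RT1-B and RT1-D genes lie between 4039413 (start of RT1-Bb) and 4132616 (end of RT1-Da), and the DM genes between 5227045 (start of RT1-DMb) and 5244386 (end of RT1-DMa). Cd74 is on chromosome 18 at 56071478 to 56080849, and Ciita is on chromosome 10 at 5213350 to 5260608.

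Library totals ran from 5488540 to 12049915 counted reads. The 3 libraries labelled 14 days stood apart from the rest. Havcr1, the tubular injury gene KIM-1, was at 0.317 to 7.45 FPKM in them and at 188 to 1040 FPKM in the other 15 libraries. Spp1, which encodes osteopontin, was at 36.8 to 258 FPKM against 5641 to 15440 FPKM. Mitochondrially encoded genes took 14.4% to 27.36% of their counts, against 7.11% to 13.57% elsewhere. Kidney tubule markers summed to 834 to 2189 FPKM at 1, 3 and 7 days, and each library of these days held the proximal tubule genes Lrp2 (39.9 to 163 FPKM), Cubn (26.01 to 88.2) and Slc5a2 (33.3 to 230). In the libraries labelled 14 days Slc5a2 was at 3.72 to 6.30 FPKM. Lrp2 was at 6.83, 191 and 2.91 FPKM and Cubn at 1.11, 71.8 and 1.26 FPKM in replicates 1 to 3, while the collecting duct gene Aqp2 was at 694, 43.8 and 777 FPKM. Replicate 5 of the 1-day group stood apart from the other 1-day libraries too, with adipocyte markers at 134 against 19.4 to 25.1 FPKM, endothelial markers at 297 against 77.1 to 116 FPKM and Aqp2 at 371 against 24.8 to 51.1 FPKM. The comparisons among 1, 3 and 7 days are therefore given first, and counts of the 8 genes and of the gene lists are also printed without the 14-day libraries where they differ. Levels are deposited FPKM, fragments per kilobase of gene length, scaled to the library total, and can be compared between genes. Fold changes are log2 ratios ± standard error from edgeR's quasi-likelihood test on the deposited counts. Calls use p-values adjusted over all 14511 genes by the Benjamini-Hochberg method, with 0.05 as the threshold. In whole tissue, more class II-expressing cells and more RNA per cell cannot be told apart.

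All 8 genes were higher at 7 days than at 1 day, by between 1.49 and 3.69 on the log2 scale, and all 8 passed the test. The rise was 12.9-fold for RT1-Da, 9.65-fold for RT1-Db1, 9.01-fold for Ciita, 8.42-fold for RT1-Ba, 5.88-fold for RT1-Bb, 5.19-fold for Cd74, 3.28-fold for RT1-DMb and 2.81-fold for RT1-DMa. In this comparison 25.6% of all tested genes were called, 12.3% in the higher direction. For every one of the 8 genes the lowest 7-day library was above the highest 1-day library, which held for 14.3% of all tested genes. The median log2 fold change of the 8 genes was 2.81, against 0.01 for all genes. The same libraries also differed between each other, most of all at 7 days, and the genes are taken in turn below by what their products do.

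**Figure D1:**
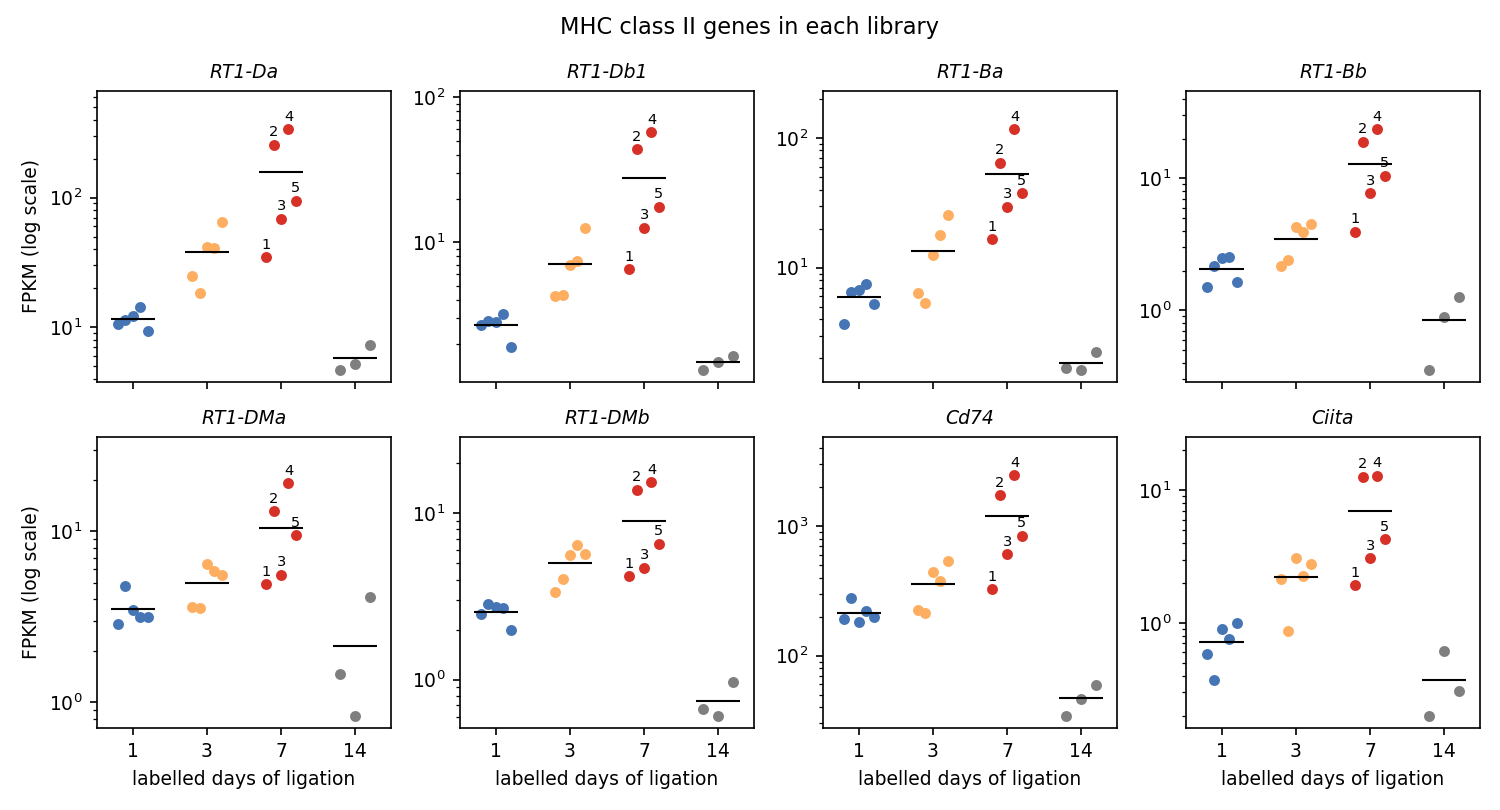
Level of each of the 8 genes in every library, as FPKM on a log axis, by days of ligation (5 libraries at 1, 3 and 7 days, 3 labelled 14 days); lines mark group means, and digits the 7-day replicates. Cd74 runs from 181 to 280 FPKM at 1 day and from 326 to 2470 FPKM at 7 days, and in every panel the 7-day libraries all lie above the 1-day libraries.

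RT1-Da, the alpha chain of the RT1-D molecule, was at 10.6, 11.3, 12.2, 14.2 and 9.26 FPKM in 1-day replicates 1 to 5. At 3 days it stood at 24.8, 18.4, 41.7, 41.1 and 64.3 FPKM, and at 7 days at 34.5, 256, 68.8, 339 and 94.6 FPKM. The 3-day libraries all lay above the 1-day libraries, while the 3-day and 7-day ranges overlapped. The 7-day mean was 158.5 ± 131.8 FPKM (SD, n = 5) and the 1-day mean 11.5 ± 1.85 FPKM (SD, n = 5), a log2 difference of 3.69 ± 0.53 (edgeR, adjusted p = 0.000283). RT1-Db1, its beta chain partner, was at 2.71, 2.84, 2.80, 3.18 and 1.88 FPKM at 1 day. It was at 4.25, 4.31, 7.01, 7.43 and 12.5 FPKM at 3 days and at 6.52, 43.9, 12.6, 57.5 and 17.6 FPKM at 7 days. As with RT1-Da, no 3-day library was as low as any 1-day library, and replicates 2 and 4 were the high ones at 7 days. The log2 difference between 7 and 1 day was 3.27 ± 0.50 (edgeR, adjusted p = 0.000389).

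RT1-Ba, the alpha chain of RT1-B, was at 3.70, 6.54, 6.77, 7.42 and 5.21 FPKM at 1 day. It was at 6.40, 5.34, 12.4, 17.9 and 25.6 FPKM at 3 days and at 16.6, 64.5, 29.5, 117 and 37.7 FPKM at 7 days. Replicates 1 and 2 at 3 days were still within the 1-day range, and every 7-day library was above it. On the log2 scale 7 days exceeded 1 day by 3.07 ± 0.50 (edgeR, adjusted p = 0.00065). RT1-Bb, the beta chain, was at 1.49, 2.17, 2.49, 2.53 and 1.63 FPKM at 1 day. It was at 2.18, 2.39, 4.29, 3.94 and 4.52 FPKM at 3 days and at 3.94, 19.0, 7.68, 23.4 and 10.5 FPKM at 7 days. The 7-day replicate 1 lay inside the 3-day range and above all 1-day libraries. RT1-Bb at 7 days exceeded 1 day by a log2 difference of 2.56 ± 0.43 (edgeR, adjusted p = 0.000745). The products of the neighbouring class II genes are close relatives of each other, and no label says how the authors' counting treated reads shared between such genes, so the split of reads among the 4 chain genes is uncertain to that extent. The further chain genes RT1-Db2 and RT1-Ha had 7 and 23 counts over all 18 libraries and were not tested.

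RT1-DMa, the alpha chain of the peptide exchange factor DM, was at 2.88, 4.78, 3.48, 3.17 and 3.14 FPKM at 1 day. It was at 3.62, 3.56, 6.40, 5.85 and 5.56 FPKM at 3 days and at 4.93, 13.1, 5.58, 19.1 and 9.48 FPKM at 7 days. Its lowest 7-day library was only just above its highest 1-day library. The log2 difference between 7 and 1 day was 1.49 ± 0.38 (edgeR, adjusted p = 0.00879), the smallest of the 8. RT1-DMb, the beta chain, was at 2.50, 2.86, 2.74, 2.68 and 1.99 FPKM at 1 day. It was at 3.36, 4.02, 5.66, 6.43 and 5.69 FPKM at 3 days and at 4.18, 13.9, 4.71, 15.4 and 6.58 FPKM at 7 days. All its 3-day libraries were above all 1-day libraries, and 7-day replicates 1 and 3 were lower than 3 of the 5 libraries at 3 days. For RT1-DMb the log2 difference was 1.72 ± 0.33 (edgeR, adjusted p = 0.00157).

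Cd74, the invariant chain, had the highest level of the 8 in all 18 libraries. It was at 193, 280, 181, 222 and 200 FPKM at 1 day, at 224, 212, 444, 375 and 535 FPKM at 3 days and at 326, 1724, 605, 2470 and 841 FPKM at 7 days. The 3-day range began inside the 1-day range and the 7-day range began inside the 3-day range. The log2 difference between 7 and 1 day was 2.38 ± 0.45 (edgeR, adjusted p = 0.00143), with means of 1193 ± 885 and 215 ± 39.2 FPKM (SD, n = 5 each). Ciita, the transactivator, had the lowest level of the 8 in 17 of 18 libraries. It was at 0.583, 0.372, 0.894, 0.760 and 0.991 FPKM at 1 day and at 2.15, 0.867, 3.07, 2.27 and 2.78 FPKM at 3 days. At 7 days it was at 1.92, 12.7, 3.10, 12.9 and 4.30 FPKM. Only replicate 2 of the 3-day libraries fell within the 1-day range. For Ciita the log2 difference between 7 and 1 day was 3.17 ± 0.54 (edgeR, adjusted p = 0.000797).

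The top and the bottom of the order of levels were the same on every day, and the middle was not. Cd74 was first and RT1-Da second in all 18 libraries, RT1-Ba took rank 3 in 17 of 18, with RT1-DMa there in the other, and Ciita was last except in 1 library, where RT1-DMb was lower. At 1 day the means below RT1-Ba ran from RT1-DMa (3.49 FPKM) through RT1-Db1 (2.68) and RT1-DMb (2.55) to RT1-Bb (2.06). At 7 days they ran from RT1-Db1 (27.6 FPKM) through RT1-Bb (12.9) and RT1-DMa (10.4) to RT1-DMb (8.95). The ranges of neighbours in these orders overlapped. Within a library, RT1-Db1 lay above RT1-Bb in all 18 libraries. RT1-DMb lay above RT1-Bb in 5 of 5 libraries at 1 day and at 3 days and in 1 of 5 at 7 days, and RT1-DMa lay above RT1-Db1 in 4 of 5 at 1 day and in 0 of 5 at 3 and 7 days. These orders are a description and were not tested.

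The step from 1 to 3 days was in the same direction for all 8 genes, and none of the 8 passed edgeR's test. The log2 differences were 1.72 ± 0.49 for RT1-Da (edgeR, adjusted p = 0.0776), 1.61 ± 0.52 for Ciita (0.117), 1.39 ± 0.47 for RT1-Db1 (0.129) and 0.96 ± 0.32 for RT1-DMb (0.129). They were 1.18 ± 0.48 for RT1-Ba, 0.74 ± 0.42 for RT1-Bb, 0.73 ± 0.43 for Cd74 and 0.51 ± 0.38 for RT1-DMa, with adjusted p from 0.209 to 0.504. Of all tested genes 2.27% were called, 1.16% in the higher direction. At an unadjusted p under 0.05 the count was 5 of 8, all higher, beside 18.1% of all genes, 8.53% in the higher direction. DESeq2 called 3 (RT1-Da, RT1-Db1 and Ciita), beside 3.11% of all genes called higher. Without the 14-day libraries edgeR called 1 of 8, RT1-Da (log2 difference 1.71, adjusted p = 0.0475), with 4.97% of all genes called higher in that fit. That call was lost when 1-day replicate 5 was left out as well: 0 of the 8 passed (smallest adjusted p = 0.0655, edgeR), beside 6.89% of all genes called higher at an adjusted p under 0.05. In that fit 4 of the 8 had an unadjusted p under 0.05, a threshold at which no share of all genes was computed for it. The libraries did not overlap for RT1-Da, RT1-Db1 and RT1-DMb, against 4.98% of all genes with every 3-day library above every 1-day library. The median over the 8 genes was 1.07, against −0.01 for all genes.

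From 3 to 7 days the log2 differences lay between 0.75 and 1.97, and only RT1-Bb was called (1.81 ± 0.41, edgeR, adjusted p = 0.0487). RT1-Da followed at 1.97 ± 0.49 (0.062), then RT1-Db1 at 1.88 ± 0.47 (0.062), RT1-Ba at 1.89 ± 0.48 (0.0629) and Cd74 at 1.65 ± 0.44 (0.0704). Ciita was at 1.56 ± 0.50, RT1-DMa at 0.98 ± 0.37 and RT1-DMb at 0.75 ± 0.32, with adjusted p from 0.113 to 0.213. Of all tested genes 1.05% were called, 0.717% in the higher direction. Without the 14-day libraries 5 of the 8 passed (RT1-Da, RT1-Db1, RT1-Ba, RT1-Bb and Cd74, adjusted p from 0.0176 to 0.0371), with 4.44% of all genes called higher. DESeq2 on all 18 libraries called these 5 and Ciita, with 3.85% of all genes called higher. The fit without the 14-day libraries and 1-day replicate 5 called 6, with 7.20% of all genes called higher. For none of the 8 did the 3-day and 7-day libraries separate without overlap, while 6.99% of all genes had every 7-day library above every 3-day library. The median was 1.73, against 0 for all genes. The 3 comparisons share libraries, so they are not independent of each other.

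**Figure D2:**
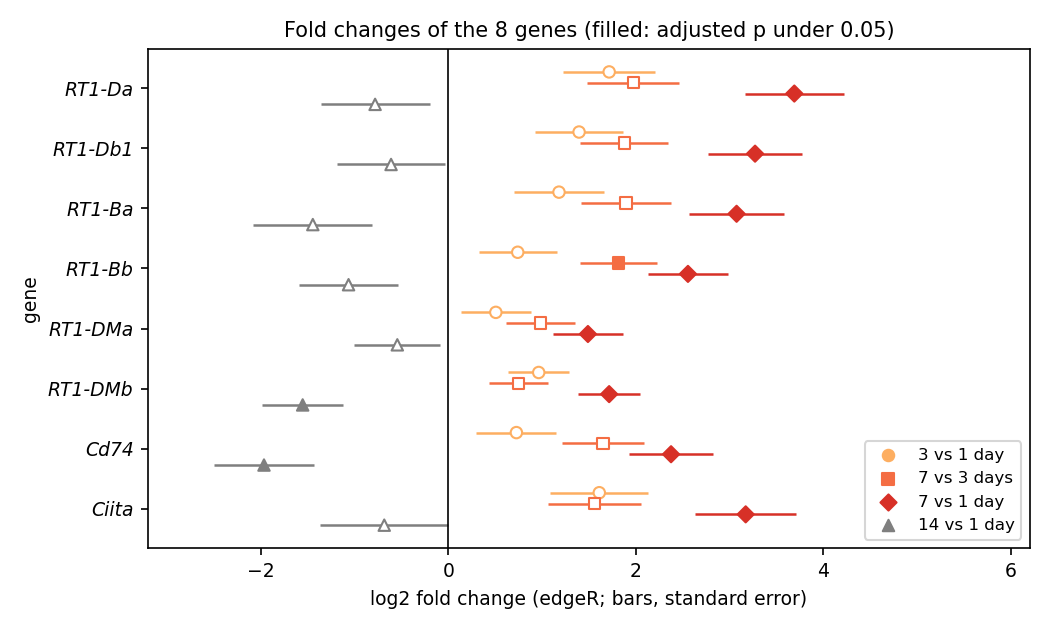
Log2 fold change of each gene with its standard error (bars) for 3 against 1 day, 7 against 3 days, 7 against 1 day and the libraries labelled 14 days against 1 day, from edgeR with all 18 libraries. Filled symbols are called at an adjusted p under 0.05: all 8 for 7 against 1 day, RT1-Bb alone for 7 against 3 days, none for 3 against 1 day, and Cd74 and RT1-DMb, both lower, for 14 days.

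The 7-day libraries fell in the same order for all 8 genes: replicate 4 highest, then 2, 5, 3 and 1. Replicate 4 stood 7.57-fold above replicate 1 for Cd74 and 6.71-fold above it for Ciita, although both libraries had about the same total (6694457 and 6705209 counts). At 1 day and at 3 days no order was shared by all 8 genes, though RT1-Ba and RT1-Bb matched at 1 day and RT1-Da and Cd74 at 3 days. Leukocyte markers moved in nearly the same order at 7 days. The summed level of 12 macrophage markers was 1064, 3742, 852, 3960 and 1611 FPKM in 7-day replicates 1 to 5. Most of it came from 1 gene, Lyz2, at 741, 2990, 602, 2985 and 980 FPKM. The sum of 8 pan-leukocyte markers was 150, 286, 149, 404 and 188 FPKM. Kidney tubule markers summed to 1349, 1164, 1903, 1146 and 1345 FPKM, lowest in replicates 2 and 4. With replicates 2 and 4 left out, 7 of the 8 genes were still called between 7 and 1 day, RT1-DMa being lost (log2 difference 0.86, edgeR, adjusted p = 0.119), and the median was 1.91 in place of 2.81. In that fit 7.46% of all genes were called higher. The same omission left no call between 7 and 3 days, beside 0.0896% of all genes called higher at an adjusted p under 0.05. There 2 of the 8 had an unadjusted p under 0.05, a threshold at which no share of all genes was computed for this fit. The median was 0.70, and RT1-DMb stood at −0.02 (edgeR, adjusted p = 0.989). Between 3 and 1 day it gave 3 calls (RT1-Da, RT1-Db1 and RT1-DMb), with 0.799% of all genes called higher. Replicates 2 and 4 were the highest 7-day libraries for all 8 genes, so leaving them out had to lower the 7-day levels and left fewer libraries. The call of RT1-Bb between 7 and 3 days was also lost without 7-day replicate 5 or any single 1-day or 3-day library. The omission therefore cannot show that the calls depend on replicates 2 and 4 in particular.

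Levels relative to the invariant chain are given as a description. RT1-Da, the gene with the largest fold change, was singled out after its values were seen. The exact permutation tests of its ratios, counted with that of Cd74 to B2m below, are therefore not printed or used as support. As a percentage of the Cd74 level in the same library, RT1-Da was at 5.47, 4.05, 6.76, 6.39 and 4.63 at 1 day. It was at 11.0, 8.65, 9.39, 11.0 and 12.0 at 3 days, and its 7-day range was 10.6 to 14.9. Every 3-day and 7-day library lay above every 1-day library. The log2 ratio of RT1-Da to Cd74 was 0.95 higher at 3 days than at 1 day, 1.19 higher at 7 days than at 1 day and 0.24 higher at 7 days than at 3 days. RT1-Db1 stood at 0.942% to 1.55% of Cd74 at 1 day, 1.58% to 2.34% at 3 days and 2.00% to 2.55% at 7 days. RT1-Ba had a range of 1.92% to 3.75% at 1 day and of 3.74% to 5.10% at 7 days, which just overlapped. For Ciita the ranges were 0.133% to 0.496% and 0.511% to 0.737%, with no overlap. For the DM chains the 7-day range reached lower than the 1-day range and overlapped it: RT1-DMa stood at 1.43% to 1.93% of Cd74 at 1 day and 0.762% to 1.51% at 7 days, and RT1-DMb at 0.996% to 1.52% and 0.622% to 1.28%.

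**Figure D3:**
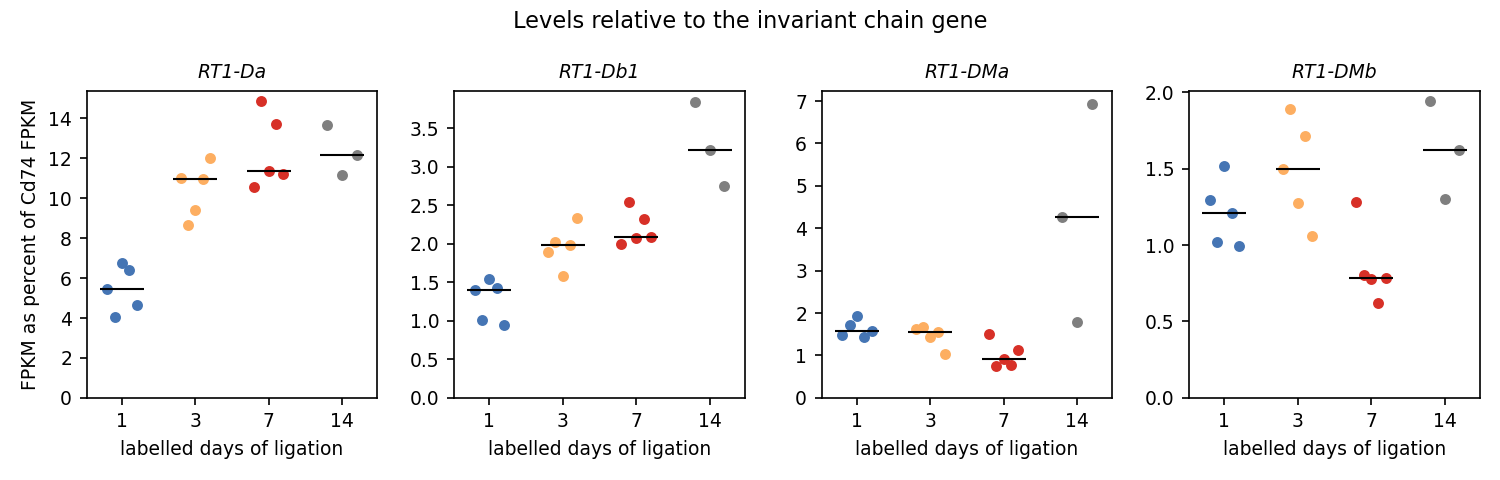
Level of RT1-Da, RT1-Db1, RT1-DMa and RT1-DMb as a percentage of the Cd74 FPKM of the same library, by labelled days of ligation; each point is 1 library, lines mark medians, and the vertical scale differs between panels. RT1-Da is at 4.05% to 6.76% at 1 day and 10.6% to 14.9% at 7 days, with no overlap, while RT1-DMa and RT1-DMb overlap between these days.

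Part of the markers of macrophages, dendritic cells, T and NK cells and leukocytes in general were higher over the same interval, as were markers of fibroblasts. Between 7 and 1 day, 8 of 12 macrophage markers, 6 of 10 tested dendritic cell markers and 4 of 7 tested pan-leukocyte markers were called higher and none lower. Their medians were 1.85, 1.25 and 1.46 on the log2 scale. All 11 tested T and NK cell markers were called higher, with a median of 2.03, and 7 of 8 fibroblast markers, with a median of 1.49. Of 6 tested B cell markers 1 was higher and 1 lower. Among all genes 12.3% were called higher and 13.3% lower. Without the 14-day libraries the counts were 9 of 12 for macrophages, 7 of 10 for dendritic cells and 5 of 7 for leukocytes in general, and for T and NK cells, fibroblasts and B cells they were as before. The summed macrophage level was 319 to 699 FPKM at 1 day, 706 to 1312 at 3 days and 852 to 3960 at 7 days. Lyz2 alone was at 194 to 458, 524 to 974 and 602 to 2990 FPKM on these days. Clec10a, a large part of the dendritic cell sum at 7 days, was at 0.663 to 3.46, 4.91 to 16.3 and 15.5 to 82.8 FPKM. The summed dendritic cell level was 20.6 to 35.3, 24.5 to 48.7 and 54.5 to 149 FPKM, and that of B cells 7.27 to 22.9, 5.08 to 28.2 and 7.13 to 27.2 FPKM. Fibroblast markers summed to 144 to 228, 180 to 261 and 483 to 739 FPKM. No marker of the macrophage, dendritic, B, and T and NK lists was at 0 in every library of any of these days. The part of these cells in the class II levels was not tested. Beside Ptprc, which encodes the pan-leukocyte antigen CD45, Cd74 did not separate the days. The Cd74 to Ptprc ratio was 40.7, 81.1, 27.1, 34.0 and 36.7 at 1 day, 19.3, 48.1, 69.7, 44.6 and 53.6 at 3 days and 29.2, 76.5, 61.6, 89.7 and 69.3 at 7 days. The ranges overlapped throughout. The log2 difference was 0.59 between 7 and 1 day, with 1 of 5 libraries above all 1-day libraries (exact two-sided permutation test, p = 0.175, adjusted p = 0.441 over 3 comparisons). It was 0.10 between 3 and 1 day and 0.49 between 7 and 3 days (exact permutation p = 0.825 and 0.294, adjusted p = 0.825 and 0.441). For RT1-Da the log2 ratio to Ptprc was 1.04 higher at 3 days than at 1 day and 1.78 higher at 7 days, each with 4 of 5 libraries above all 1-day libraries, again as a description.

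**Figure D4:**
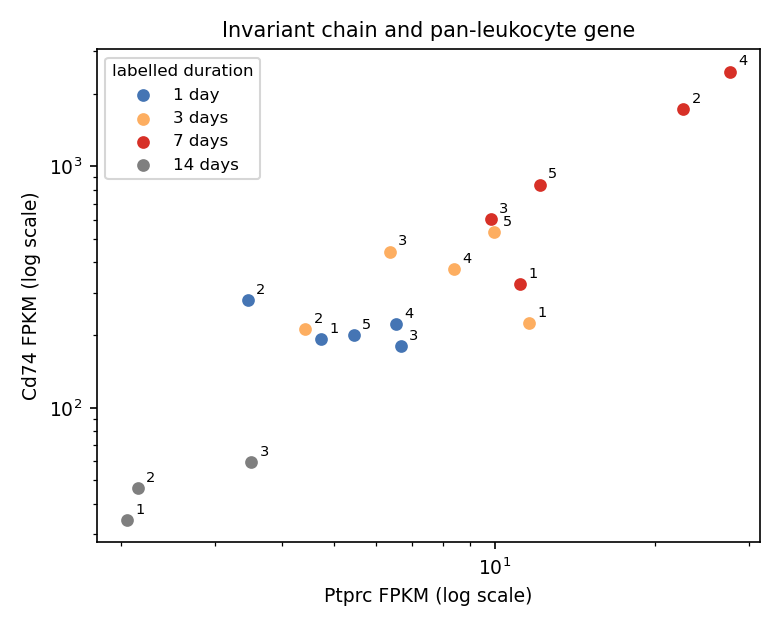
Cd74 against Ptprc in every library, both in FPKM on log axes, coloured by labelled days of ligation, with digits for the replicates. Ptprc runs from 3.45 to 6.67 FPKM at 1 day and from 9.83 to 27.5 FPKM at 7 days, and the Cd74 to Ptprc ratio overlaps between days (27.1 to 81.1 at 1 day, 29.2 to 89.7 at 7 days).

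The accessory genes of the pathway were divided. Of 15 tested, 5 were higher and 4 lower at 7 days than at 1 day, with a median of 0.43, beside 12.3% higher and 13.3% lower among all genes. In the fit without the 14-day libraries 7 were higher and 5 lower, and 37.5% of all genes were called. RT1-DOa, a chain of the DO molecule that restrains DM, rose by 3.46 ± 0.64 (edgeR, adjusted p = 0.00138), with a range of 0.108 to 0.550 FPKM at 1 day and of 1.09 to 7.95 FPKM at 7 days. Ctss, the cathepsin that makes the late cut in the invariant chain, rose by 1.91 (adjusted p = 0.00174, edgeR), with ranges of 11.6 to 36.3 FPKM and 33.0 to 136 FPKM on the same days. Cd86, a costimulatory ligand for T cells, rose by 1.42 (adjusted p = 0.00751, edgeR). RT1-DOb, the other DO chain, named here after its value was seen, rose by 1.73 (adjusted p = 0.00841, edgeR). Among the 4 called lower, the lysosomal protease gene Ctsb changed by −0.92 (edgeR, adjusted p = 0.00109), Cd44, an adhesion receptor that associates with CD74, by −1.33 (0.00613), and the ubiquitin ligase gene Marchf8, whose product removes class II from the surface, by −0.39 (0.00673). At 3 days none of the 15 was higher than at 1 day in edgeR's test, and Cd44 (−1.29) and Ctsb (−0.66) were lower, beside 1.12% of all genes called lower. At an unadjusted p under 0.05, 3 were higher and 3 lower, beside 18.1% of all genes in either direction. DESeq2 called 1 higher and 2 lower, beside 3.11% and 3.58% of all genes. Without the 14-day libraries none was higher and 3 lower, beside 5.02% of all genes called lower. Between 7 and 3 days none of the 15 was called by edgeR or DESeq2. At an unadjusted p under 0.05, 7 were higher and 0 lower there, beside 10.0% of all genes higher.

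Genes upstream of Ciita and at the X and Y boxes were called about as often as genes in general. Of 19 tested regulators 2 were higher and 3 lower at 7 days than at 1 day, with a median of 0.05. These shares, 5 of 19 in all, lie near those of all genes (25.6% called). With the 14-day libraries left out 4 were higher and 4 lower, beside the same 37.5%. Ifngr1, the ligand-binding chain of the interferon gamma receptor, rose by 0.72 (edgeR, adjusted p = 0.0125), and Tgfb1, a cytokine known to repress Ciita, rose by 0.97 (0.0299). Creb1, a factor of the X box complex, changed by −1.02 (edgeR, adjusted p = 0.00402), the coactivator Ep300 by −1.33 (0.00522), and Rfx5, a subunit of the complex that binds the X box, by −0.47 (0.00854). Irf1, a transcription factor that acts on Ciita after interferon gamma and was named after its value was seen, stood at −0.27 (edgeR, adjusted p = 0.522). Ifng itself had too few reads to be tested. It was listed at 0 to 0.335 FPKM at 1 day, 0 to 0.829 FPKM at 3 days and 0.437 to 1.46 FPKM at 7 days. Rfx5 (−0.52) was the only regulator called between 3 and 1 day, beside 2.27% of all genes. Between 7 and 3 days edgeR called none and DESeq2 1, higher, beside 3.85% of all genes called higher by DESeq2. At an unadjusted p under 0.05, 2 were higher and 1 lower there, beside 18.8% of all genes in either direction. Without the 14-day libraries 1 regulator was higher and 1 lower between 3 and 1 day, beside 9.99% of all genes called. In that fit 2 were higher between 7 and 3 days, beside 4.44% of all genes called higher.

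The class I pathway, which presents peptides from the cytosol on nearly all cells, had no gene called higher. Of 19 tested genes none was higher and 1 was lower at 7 days than at 1 day in edgeR's test, with a median of 0.12. At an unadjusted p under 0.05 none was higher and 4 lower, beside 37.7% of all genes in either direction. DESeq2 called none higher and 4 lower, beside 14.8% of all genes called higher and 16.3% lower. The fit without the 14-day libraries also called none higher and 4 lower. In that fit 37.5% of all genes were called in either direction, 17.5% higher. The gene called lower was Erap1, a peptide-trimming protease (−0.56, edgeR, adjusted p = 0.0248). B2m, the light chain of class I, was at 564 to 963 FPKM at 1 day, 494 to 832 FPKM at 3 days and 598 to 1388 FPKM at 7 days, with overlapping ranges. The ratio of Cd74 to B2m, tested after the data were seen with p-values adjusted over 9 comparisons (the ratios of Cd74 to B2m, RT1-Da to Ptprc and RT1-Da to Cd74 between 3 pairs of days), was 1.78 higher on the log2 scale at 7 days than at 1 day (exact permutation p = 0.0159, adjusted p = 0.0357), with 4 of 5 libraries above all 1-day libraries. Between 3 and 1 day it was 0.70 higher (exact permutation p = 0.103, adjusted p = 0.133) and between 7 and 3 days 1.08 higher (exact permutation p = 0.0556, adjusted p = 0.0833). The levels of Cd74 and B2m had been seen before this ratio was formed, so its p-values are no independent support for a rise. Between 3 and 1 day and between 7 and 3 days edgeR and DESeq2 called none of the 19 class I genes in either direction. The fit without the 14-day libraries called 2 lower between 3 and 1 day, beside 5.02% of all genes called lower, and none between 7 and 3 days. At an unadjusted p under 0.05, 1 was higher and 4 lower in the first, beside 18.1% of all genes in either direction. In the second 4 were higher and 1 lower, beside 18.8% of all genes in either direction.

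**Figure D5:**
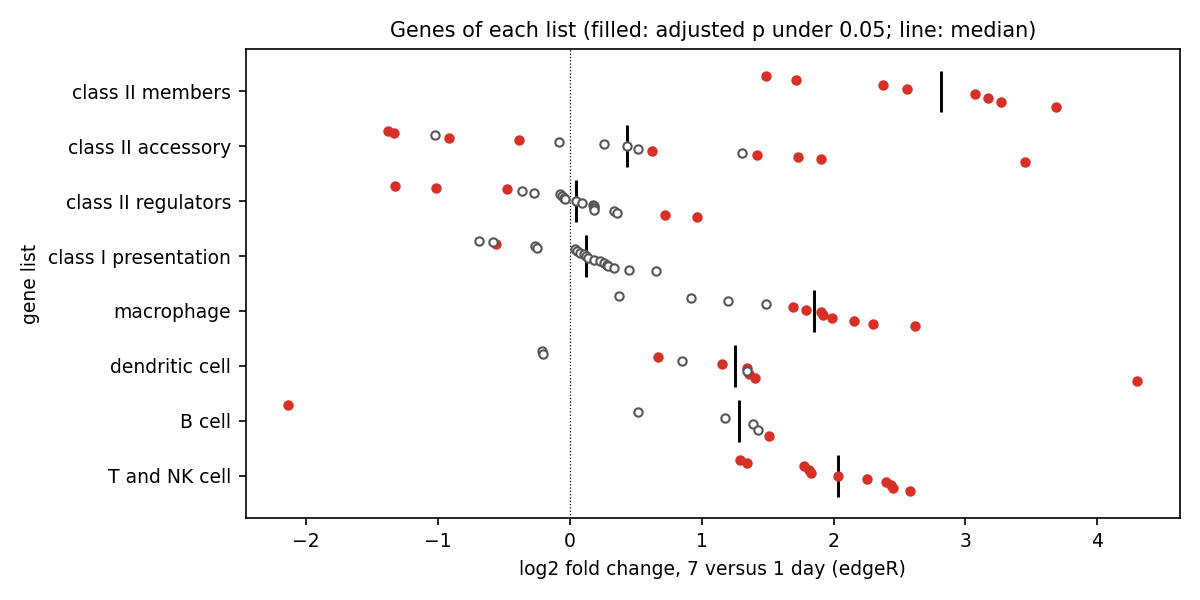
Log2 fold change of 7 against 1 day for every tested gene of the class II set, the 3 pathway lists and 4 cell type lists (points, filled at an adjusted p under 0.05), with each list's median as a line, from edgeR with all 18 libraries. The 8 class II genes have a median of 2.81, the accessory genes 0.43, the regulators 0.05 and the class I genes 0.12, against 0.01 for all genes.

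The genes whose levels ran closest to the mean profile of the 8 over the 15 libraries of 1, 3 and 7 days were Grcc10, LOC100909630, Apbb1ip, RT1-DOa, N4bp2l1, Cd37, Tmem150b, Nfam1, Cfp and Clec12a. Their Pearson r on log2(FPKM + 1) ran from 0.989 to 0.956, beside 0.973 to 0.994 for the 8 genes themselves. Each of the 8 is part of that mean profile, which raises its own r, so these ranges are not alike. These r values describe the same 15 libraries, which share the differences between days and between 7-day replicates. RT1-DOa is the only gene of the pathway among the 10. Cd37 is a leukocyte tetraspanin, Nfam1 and Clec12a are receptors of leukocytes, Apbb1ip is an adaptor for integrin activation, and Cfp is the complement factor properdin. Cd37 was at 4.43 to 7.73 FPKM at 1 day, 5.75 to 14.3 FPKM at 3 days and 12.1 to 57.2 FPKM at 7 days. Grcc10 had a narrower range, 20.6 to 23.0 FPKM at 1 day and 26.3 to 39.8 FPKM at 7 days.

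In the libraries labelled 14 days all 8 genes were lower than at 7 days, by between 2.03 (RT1-DMa) and 4.52 (RT1-Ba) on the log2 scale, and all 8 passed the test (edgeR, adjusted p from 8.37e-05 to 0.00354). In that comparison 38.3% of all tested genes were called, 21.4% higher and 16.9% lower. With limma on log2(FPKM + 1), where the median of all genes stood at −0.26 in place of 0.07, 6.57% were higher and 33.7% lower, and all 8 genes were called lower there too. Cd74 was at 34.3, 46.4 and 59.7 FPKM, RT1-Da at 4.69, 5.19 and 7.28 FPKM and Ciita at 0.199, 0.613 and 0.309 FPKM. For all 8 genes these libraries lay below every 7-day library, as 26.6% of all tested genes did. Against 1 day 2 of the 8 were called lower, Cd74 (−1.96 ± 0.53, edgeR, adjusted p = 0.0112) and RT1-DMb (−1.55 ± 0.43, 0.0124), with 32.0% of all genes called, 14.3% lower. Without 14-day replicate 1 neither was called, and the smallest adjusted p of the 8 was 0.0514. In these libraries 9 of 12 macrophage markers, 8 of 10 dendritic cell markers and 6 of 7 pan-leukocyte markers were also lower than at 7 days, and all 7 tested adipocyte markers were called higher. The summed adipocyte level was 197, 47.0 and 2038 FPKM in replicates 1 to 3, each above the 7-day range of 19.8 to 37.2 FPKM. Single markers differed in replicate 2, the lowest of the 3. Fabp4 was at 123, 2.05 and 1522 FPKM and Plin1 at 18.7, 0 and 142 FPKM in replicates 1 to 3. Adipoq in replicate 2 (3.65 FPKM) was below its 7-day range of 4.94 to 9.38 FPKM, although the sum of the list there was not. The summed macrophage level in the 3 libraries was 96.7 to 352 FPKM. The part of these markers, of the mitochondrial share and of the low injury genes in the class II difference was not tested.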

How the data were processed

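Per the labels' protocols, poly(A) RNA was enriched from kidney tissue and sequenced after PCR amplification. The submitters' processing notes name fastp 0.19.7 and HISAT2 2.0.4. No label or header names the counting tool, its strand setting, the annotation or the build, and no molecular identifiers are described. The authors deposited read counts and FPKM per gene for 18 libraries. The deposited FPKM equal count over length and library total (implied lengths of 8250 genes differed between libraries by a factor of at most 1.00002).

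The members and gene lists were chosen with earlier results of these data known. All 8 genes are named, and of each list of the pathway up to 3 called genes in each direction by adjusted p, otherwise the 2 smallest, with exceptions marked in the text. Of 155 listed genes in 13 lists, 150 were found, 2 by an older symbol. Counts were fitted with edgeR 4.0.16 (R 4.3.3) over all 18 libraries, with TMM factors and filterByExpr at a count minimum of 10 and a total of 15. Standard errors are the fold change over the root of F. Ratios of FPKM were tested with exact permutation tests (scipy 1.17.1). The steps were tested on simulated data. Alternatives used DESeq2 1.42.0, limma 3.58.1 on log2(FPKM + 1) or log2(FPKM + 0.1), other factors, filters and sets of libraries. All libraries carry the same batch label.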

Additional observations from a re-analysis of the deposited data

Results flagged for a closer look

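Single libraries stood far from the rest of their group in 2 of 48 groups of 5 tested, and chance flags about 1 in 20. The Cd74 to Ptprc ratio was 81.1 in 1-day replicate 2, against 27.1 to 40.7 in the other 1-day libraries, with a gap of 0.748 of the group's range. That library's Cd74 level was the highest of its group (280 FPKM) and its Ptprc level the lowest (3.45 FPKM). RT1-DMb was at 1.28% of Cd74 in 7-day replicate 1, against 0.622% to 0.806% in the other 7-day libraries, a gap of 0.72 of the range. That library had the lowest Cd74 level of its group (326 FPKM) and the lowest RT1-DMb level (4.18 FPKM).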

How the results depend on the processing

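All 8 genes remained called between 7 and 1 day under all alternatives but 1, and between 14 and 7 days under all. The exception was keeping 7-day replicates 1, 3 and 5 alone (7 of 8), an alternative added after the data were seen, as were the other omissions of several libraries below apart from that of the 14-day group. Between 3 and 1 day (0 called) the count was 3 with DESeq2 (3.11% of all genes called higher). It was 4 with only the 2 groups compared, a fit for which no share of all genes was computed. It was 1 without the 14-day libraries (4.97%), 3 with 7-day replicates 1, 3 and 5 (0.799%) and 4 with those and no 14-day libraries (5.02%). It ran from 0 to 1 with 1 library left out, with 1 call, RT1-Da, without 7-day replicate 1 or 14-day replicate 2. Between 7 and 3 days (1 called, beside 0.717% of all genes called higher) it was 6 with DESeq2 (3.85%), 5 without the 14-day libraries (4.44%) and 6 without these and 1-day replicate 5 (7.2%). It was 0 with no filter on low counts, with limma on either log2 scale, with mitochondrial genes left out and with 7-day replicates 1, 3 and 5 (with or without the 14-day libraries). It ran from 0 to 5 with 1 library left out: 5 without 7-day replicate 1 or 14-day replicate 2, 3 without 7-day replicate 3 or 14-day replicate 3, 1 without 14-day replicate 1, and 0 without any other library. Between 14 and 1 day (2 called) it was 4 with limma on log2(FPKM + 0.1) and 4 with only the 2 groups compared. No share of all genes was computed for these fits, so the larger counts cannot be set against it. With limma on log2(FPKM + 1) 2 were called, beside 25.4% of all genes called lower. The count was 3 with DESeq2 (15.8% of all genes called lower), 3 with 7-day replicates 1, 3 and 5 (13.9%), and 0 to 2 with 1 library left out. For the fits with 1 library left out no share of all genes was computed.

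Whether equal replicate numbers pair the libraries is not settled by their correlations, since the ranges overlap widely. The 24 same-numbered pairs had correlations of −0.424 to 0.395 (median 0.041), and 10 of them were over 0.1. The 96 differently numbered pairs had −0.643 to 0.526 (median −0.034), and 24 of them were over 0.1. With the replicate block the counts were 0, 0, 8, 8 and 2 for 3 against 1, 7 against 3, 7 against 1, 14 against 7 and 14 against 1 day.

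RT1-DMb between 7 and 3 days reversed to −0.018 with 7-day replicates 1, 3 and 5 and to −0.033 without the 14-day libraries as well. The Cd74 to Ptprc difference, never past the threshold, reversed between 3 and 1 day to −0.078 with Csf1r in place of Ptprc, and with 1 library left out it ran from −0.075 to 0.387. Between 7 and 3 days it reversed to −0.009 with Cd53 in place of Ptprc. The cause of these changes was not tested. The Cd74 to B2m difference between 7 and 1 day kept its direction with each library left out, with exact permutation p adjusted to between 0.0238 and 0.0714. Over all genes, limma on log2(FPKM + 1) gave 14.1% higher and 7.9% lower between 7 and 1 day (edgeR: 12.3% and 13.3%), 1.2% and 0.613% between 3 and 1 day (1.16% and 1.12%), 0.744% and 0.11% between 7 and 3 days (0.717% and 0.331%) and 6.63% and 25.4% between 14 and 1 day (17.7% and 14.3%). The lowest Ptprc count of a group was between 61 and 362, and counting error adds to these ratios.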
